A study of Mus musculus with 4 samples.

Results

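The 9 genes studied here act in fatty acid uptake from blood lipoproteins into the adipocyte and in binding or activation there, Angptl4 as an inhibitor. These genes were followed across 4 microarrays of 3T3-L1 adipocytes. They are Lpl, Angptl4, Cd36, Slc27a1, Slc27a4, Fabp3, Fabp4, Fabp5 and Acsl1. Members were the probes that the scanner files name for these genes, which gave 12 of the 55681 probes on the array. The 9 genes stand among 35019 gene names, which include names without a RefSeq match and are counted as genes below. 3T3-L1 is a mouse fibroblast line that turns into fat cells in culture. Differentiated cells were kept for 7 days with 1 of 4 additions. The control group received PBS, the second received 25 µM daidzein (a soy isoflavone), the third 100 µg/ml of a pig testis extract (PT, a mixture whose constituents are not analysed here), and the last both agents. RNA of each group went onto 1 Agilent one-colour array, so no group has a replicate. The series asks how the extract acts on adiponectin, the secreted adipocyte protein encoded by Adipoq.

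Fat cells take most of their stored fatty acid from circulating triglyceride. Lipoprotein lipase frees the acids outside the cell, membrane proteins such as CD36 and the fatty acid transport proteins help them across, fatty acid binding proteins carry them through the cytosol, and acyl-CoA synthetases trap them as acyl-CoA. Several of these genes are known targets of PPARγ, the nuclear receptor that drives fat cell formation.

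All 9 genes were read well above background on all 4 arrays. No spot was saturated on any array, and between 49.7% and 51.4% of non-control spots were well above background. Signals below are Feature Extraction processed signals, before scaling. Differences are on the log2 scale after each array was divided by its 75th percentile, which lay between 360 and 418, and a fold change is the same difference on the linear scale. The spread used as error is the SD, over genes of like brightness, of the difference between the effects of PT with and without daidzein, rescaled to a difference of 2 arrays. It was 0.33 for dim, 0.14 for middle and 0.11 for bright genes, and it holds no spread between cultures. The arrays with PT lay in slide row 2 and those without it in row 1, so PT and slide row cannot be told apart. Each array also had a slide column of its own (PBS 3, daidzein 4, PT 1 and daidzein+PT 2). Slide column can therefore not be told apart from daidzein or from PT.

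Each probe is 60 bases long, and its position on mm9 comes from the array files. Whether a probe lies in an exon or an untranslated region was not analysed here. The Cd36 probe lies at chr5:17288600-17288659 on the minus strand and the Fabp4 probe at chr3:10204452-10204511 on the minus strand. Fabp5 was read at chr3:10016185-10016244 on the plus strand. Lpl was read by 2 probes at chr8:71430267-71430326 and chr8:71425050-71425109, and Acsl1 by 2 probes at chr8:47621232-47621291 and chr8:47619774-47619833, all on the plus strand. Angptl4 was read at chr17:33911880-33911939 (minus), Slc27a1 at chr8:74110256-74110315 (plus) and Slc27a4 at chr2:29672983-29673042 (plus). Bases 1 to 30 are printed for the probes of the 5 genes that differed most and for the overlapping Fabp3 pair, in which capitals mark bases that both Fabp3 probes hold.
Cd36: aagaatgaaaaatgaacaattcacatgtga
Fabp4: aagaggcctggatggaaatttgcatcaaac
Fabp5: gtcaaatgcaacaaacagcttcacttcttt
Acsl1, probe used: gcctaacttcatactcgtattcttaattgc
Acsl1, other probe: agagctacggaactatttcaggtcgcagat
Lpl, probe used: gaacaccaacccacatgcaaaaccccacaa
Lpl, other probe: cgaggtttccacaaataaaacctactcctt
Fabp3, probe used: TAAAACTGTATCCAAAGGGTGCTCCAAGGT
Fabp3, other probe: tttatttttTAAAACTGTATCCAAAGGGTG
The longest run of bases that probes of different members share is 9, also among the Fabp genes.

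Lpl, the lipase that splits lipoprotein triglyceride, was lowest with PBS and highest with both agents. Its signal was 24891 with PBS, 71498 with daidzein, 44910 with PT and 102895 with daidzein+PT. Every treated array lay above the PBS array, and daidzein alone lay above PT alone by 0.71. Daidzein gave 2.63-fold over PBS (log2 difference 1.40) and 2.66-fold when added to PT (1.41), while PT gave 1.61-fold over PBS (0.68) and 1.62-fold on top of daidzein (0.70). Each of these differences is larger than the spread of 0.11. The other Lpl probe read 3882, 11995, 6757 and 17965 in the order PBS, daidzein, PT and daidzein+PT, which is the same order of groups, with 2.26 for both agents over PBS against 2.10 by the probe used.

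Angptl4, a secreted inhibitor of lipoprotein lipase, did not share that pattern. Its signal was 55905 with PBS, 52379 with daidzein, 62066 with PT and 43596 with daidzein+PT. The scaled difference was -0.22 for daidzein over PBS and -0.30 for daidzein added to PT, both larger than the spread of 0.11, although the first was -0.10 with quantile normalization and in the deposited table. For PT it was -0.02 over PBS and -0.09 over daidzein, inside the spread, but these depended on the scaling: the first ran from -0.26 to 0.05, and the other reached -0.24 and lay beyond the spread under 5 other settings. With both agents Angptl4 stood at -0.31 to PBS, a 1.24-fold lower level.

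Cd36, the main long-chain fatty acid receptor of the adipocyte surface, showed the widest range of the 9 genes. Its signal was 284 with PBS, 2830 with daidzein, 786 with PT and 4609 with daidzein+PT. The 4 arrays were well separated, with daidzein alone 1.89 above PT alone. Cd36 was 9.12-fold over PBS with daidzein (3.19), 2.46-fold with PT (1.30) and 16.8-fold with both (4.07). Daidzein over PBS placed it at rank 2 of 19012 genes, and both agents over PBS at rank 4 of 18558. On top of the other agent, daidzein gave 6.80-fold (2.77) and PT gave 1.84-fold (0.88).

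The fatty acid transport proteins, membrane acyl-CoA synthetases that aid uptake, stayed within the spread at the 75th percentile scaling. Slc27a1 (FATP1) read 827 with PBS, 958 with daidzein, 972 with PT and 843 with daidzein+PT. Its scaled differences ran from -0.01 to 0.09 over the 5 comparisons, below the spread of 0.14. Slc27a4 (FATP4) read 129 with PBS, 161 with daidzein, 126 with PT and 128 with daidzein+PT, and its differences lay between -0.19 and 0.23 against a spread of 0.33. With median scaling 4 of these values passed the spread, Slc27a1 at -0.18 for PT over PBS, -0.16 for PT added to daidzein and -0.14 for both over PBS, and Slc27a4 at -0.44 for PT over PBS. For both genes no order of the 4 groups can be given beyond that spread.

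Fabp4, the binding protein most typical of adipocytes and also called aP2, was second to Cd36 in its differences for daidzein and for both agents over PBS. Its signal was 15854 with PBS, 95941 with daidzein, 38016 with PT and 129135 with daidzein+PT. The order of the arrays was again PBS, PT, daidzein and daidzein+PT, with daidzein alone 1.38 above PT alone. Fabp4 was 5.54-fold over PBS with daidzein (2.47), 2.14-fold with PT (1.09) and 8.42-fold with both (3.07). PT added to daidzein gave 1.52-fold (0.60), less than PT over PBS.

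Fabp5, the epidermal form that adipocytes also make, had the smallest daidzein difference of the 5 genes that differed most. Its signal was 21704 with PBS, 46946 with daidzein, 34051 with PT and 76964 with daidzein+PT. Daidzein gave 1.98-fold over PBS (0.99) and 2.62-fold over PT (1.39), and PT gave 1.40-fold over PBS (0.48) and 1.85-fold over daidzein (0.89). With both agents Fabp5 was 3.67-fold over PBS (1.87). The PBS, PT and daidzein groups were closer than those of Cd36 or Fabp4, with daidzein alone 0.50 above PT alone, still beyond the spread of 0.11. The step from daidzein to daidzein+PT was not closer, at 0.89 against 0.88 for Cd36 and 0.60 for Fabp4. Fabp5 is the only member whose differences were larger in the presence of the other agent by more than the spread.

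Fabp3, the form typical of heart and muscle, was near background and flat. The probe used read 23.5 with PBS, 28.4 with daidzein, 28.7 with PT and 25.4 with daidzein+PT, with differences of 0.01 to 0.16 against a spread of 0.33. The other probe, which shares 51 of its 60 bases, read 16.1, 16.7, 16.0 and 8.08 in the same order and was not well above background on any array. When both probes were averaged, Fabp3 passed the spread in the 3 comparisons of daidzein+PT, at -0.37 over PT, -0.43 over daidzein and -0.39 over PBS.

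Acsl1, the main acyl-CoA synthetase of fat cells, had the same order of groups as Fabp4. Its signal was 5787 with PBS, 26565 with daidzein, 14960 with PT and 42616 with daidzein+PT. Acsl1 was 4.21-fold over PBS with daidzein (2.07), 2.30-fold with PT (1.20) and 7.61-fold with both (2.93). Added to the other agent, daidzein gave 3.31-fold (1.72) and PT 1.81-fold (0.86), and daidzein alone lay 0.87 above PT alone. The other probe read 973, 5065, 2258 and 8259 in the order PBS, daidzein, PT and daidzein+PT, with 3.13 for both agents over PBS.

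**Figure D1:**
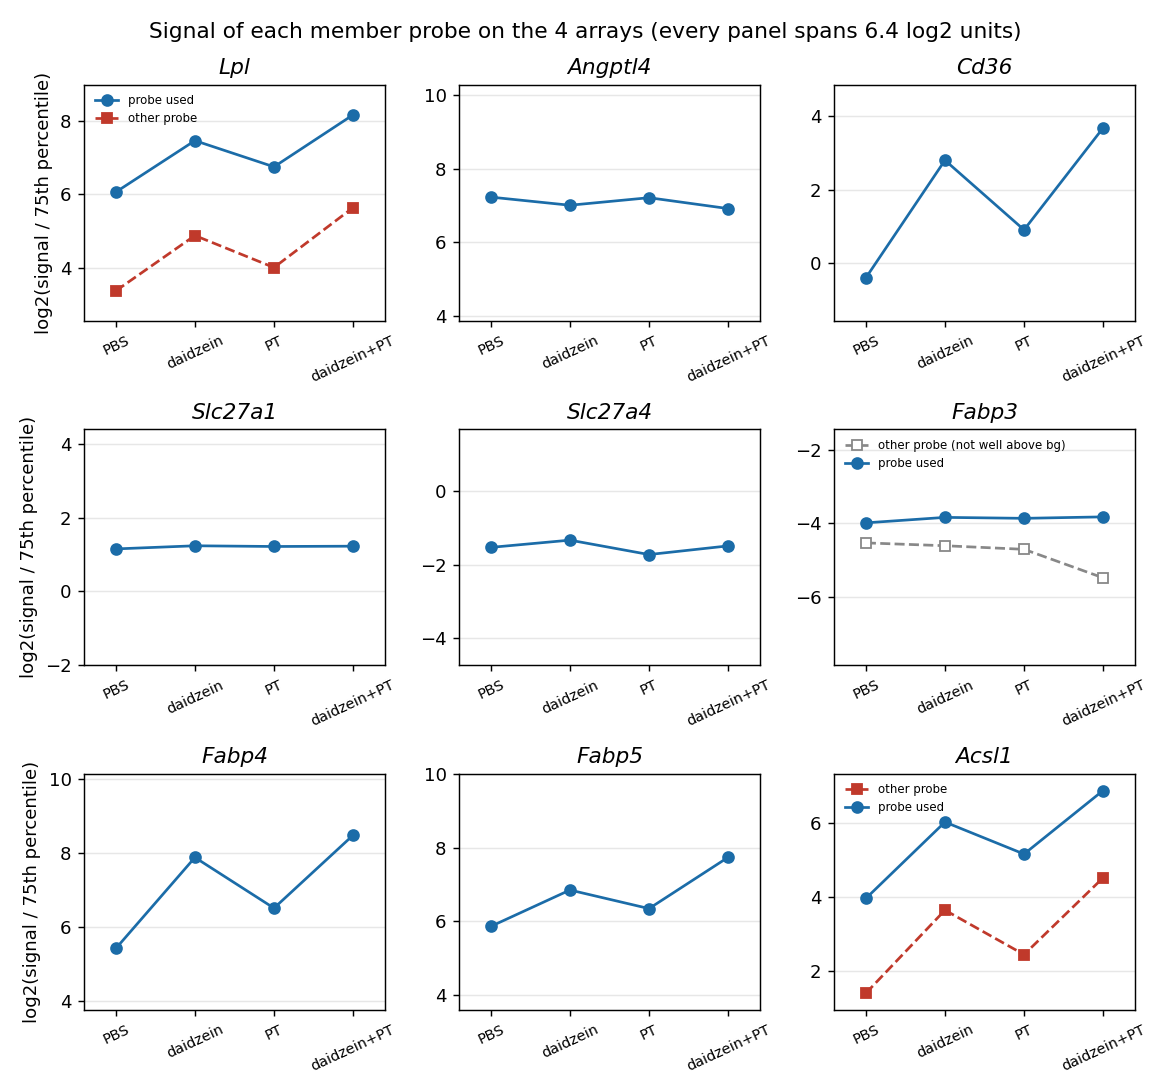
Scaled level of each member probe (vertical axis, log2 of signal over the array's 75th percentile) in the 4 groups (horizontal axis), with 1 array per point and lines that only join the points of a probe (open squares, a probe not well above background). Lpl, Cd36, Fabp4, Fabp5 and Acsl1 run in the order PBS, PT, daidzein and daidzein+PT, whereas Slc27a1, Slc27a4 and the Fabp3 probe used stay within 0.23 in every comparison.

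Counted over the set, 4 of the 9 members were at least 2-fold higher with daidzein than with PBS (Cd36, Fabp4, Acsl1 and Lpl), where 1.1% of all genes compared were. Fabp5 sat at that threshold (0.99) and made the count 5 with normexp, quantile or cyclic loess scaling and in the deposited table. When daidzein was added to PT, 5 of 9 were at least 2-fold higher (the same 4 and Fabp5), against 2.1% of all genes. For PT over PBS the count was 3 (Cd36, Acsl1 and Fabp4), against 0.873%, and 1 (Cd36) when arrays were scaled by their median. For PT added to daidzein it was 0 of 9, against 1.07%. With both agents over PBS it was 5, against 2.52%. No member was 2-fold lower in any comparison, against 0.368%, 0.86%, 0.0635%, 0.107% and 0.555% of genes in that order. Ranked among the 19012 genes compared for daidzein over PBS, Fabp4 stood at 30, Acsl1 at 58, Lpl at 112 and Fabp5 at 217. Among the 18558 compared for both agents over PBS they stood at 48, 60, 133 and 170. The median difference of the members was 0.99 for daidzein over PBS and 1.87 for both agents over PBS, where the medians of all genes were -0.03 and -0.03. Both daidzein comparisons, which share no array, put Cd36, Fabp4, Acsl1 and Lpl past 2-fold, against 0.894% of genes, and both PT comparisons put no member there, against 0.153% of genes higher and 0.00545% lower.

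**Figure D2:**
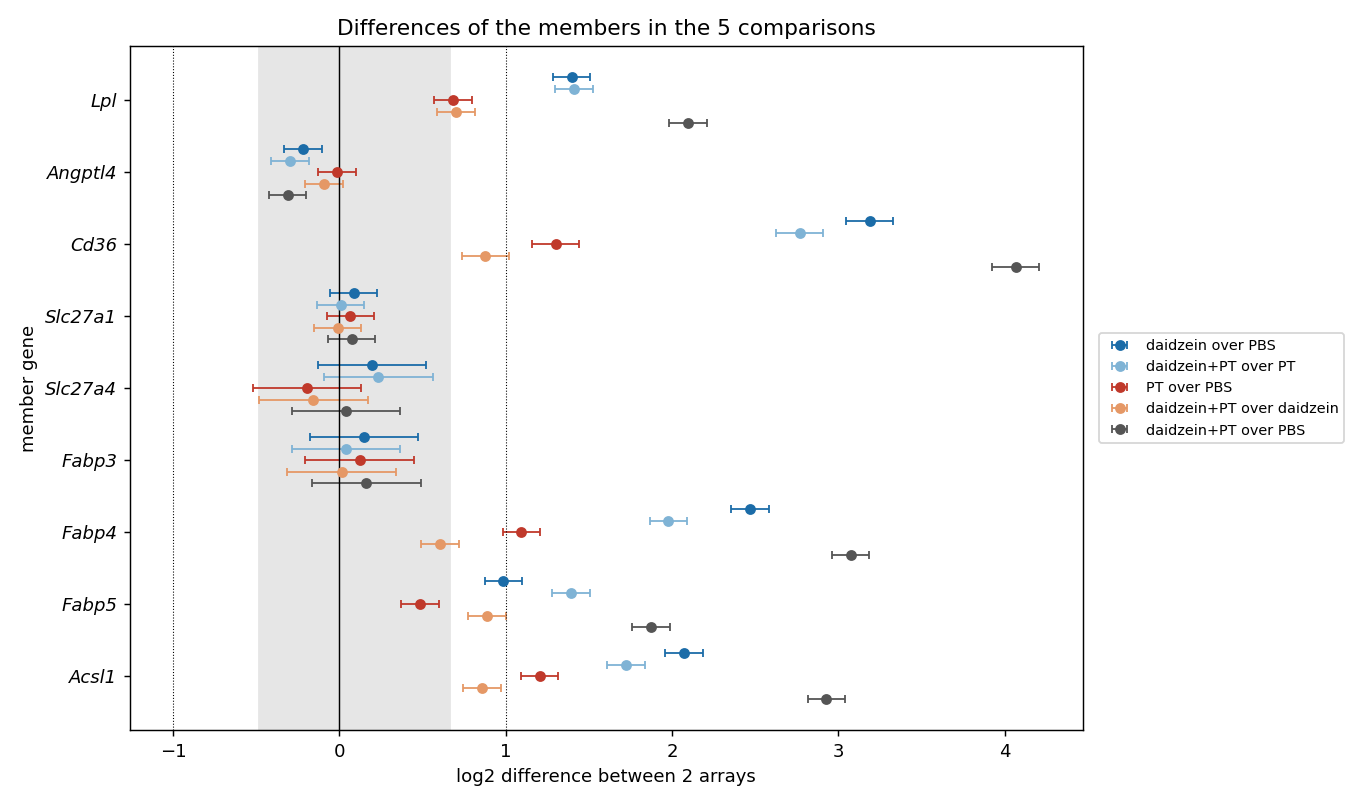
Log2 difference of each member (horizontal axis) in the 5 comparisons, with bars of 1 SD of a difference between 2 arrays for genes of like brightness. Dotted lines mark 2-fold, and the grey band holds the middle 90% of all genes for daidzein+PT over PBS, -0.48 to 0.67. The points of Lpl, Cd36, Fabp4, Fabp5 and Acsl1 for both agents over PBS lie beyond the 2-fold line, and those of the other 4 lie inside the band.

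An additive limma fit of daidzein and PT over all 4 arrays, with 1 residual degree of freedom, gave 6 members past an adjusted p of 0.05 for daidzein, 5 higher and 1 lower, where 9.76% and 8.23% of the 19671 genes fitted were. The 5 that rose with daidzein were Cd36 by 2.98, Fabp4 by 2.22, Acsl1 by 1.90, Lpl by 1.40 and Fabp5 by 1.19, with limma adjusted p of 1.17e-33 or less. Angptl4 fell by 0.26 (SE 0.098, limma adjusted p 0.0485), a call that ended under 6 of the other settings. For PT the same 5 genes rose, against 3.87% of genes higher and 0.946% lower. The PT effects were 1.09 for Cd36, 1.03 for Acsl1, 0.85 for Fabp4, 0.69 for Lpl and 0.69 for Fabp5, with limma adjusted p of 2.99e-10 or less. These p-values rest on a variance pooled over genes by signal, which gave 1724 total degrees of freedom. They take the difference between the PT effects with and without daidzein as error, and hold no spread between cultures. Without that trend by signal limma kept only Cd36 (0.0461) and Lpl (0.0477) for daidzein and none for PT. For PT the limma adjusted p then ran from 0.262 to 0.462 among the 5. With median scaling 3 members passed for PT. Slc27a1, Slc27a4 and Fabp3 did not pass for either agent, with adjusted p of 0.376 or more in the limma fit for daidzein and 0.789 or more for PT.

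The sum of the single-agent differences was compared with what both agents gave together. For Lpl the sum was 2.08 and the observed difference 2.10, a gap whose sign turned in 4 other settings (-0.11 to 0.12). Cd36 had a sum of 4.49 and an observed 4.07, Fabp4 3.57 and 3.07, and Acsl1 3.28 and 2.93. These 3 fell short of the sum by 0.42, 0.49 and 0.35, where the SD of this quantity over genes was 0.20 for genes as bright as Cd36 and 0.16 for the others. The other Acsl1 probe, also well above background on all 4 arrays, gave a smaller gap of -0.17, close to that SD of 0.16. Fabp5 ran the other way, with a sum of 1.47 and an observed 1.87. With 1 array per group these departures have no test, and they, like the single-agent differences, are shared with the slide columns.

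**Figure D3:**
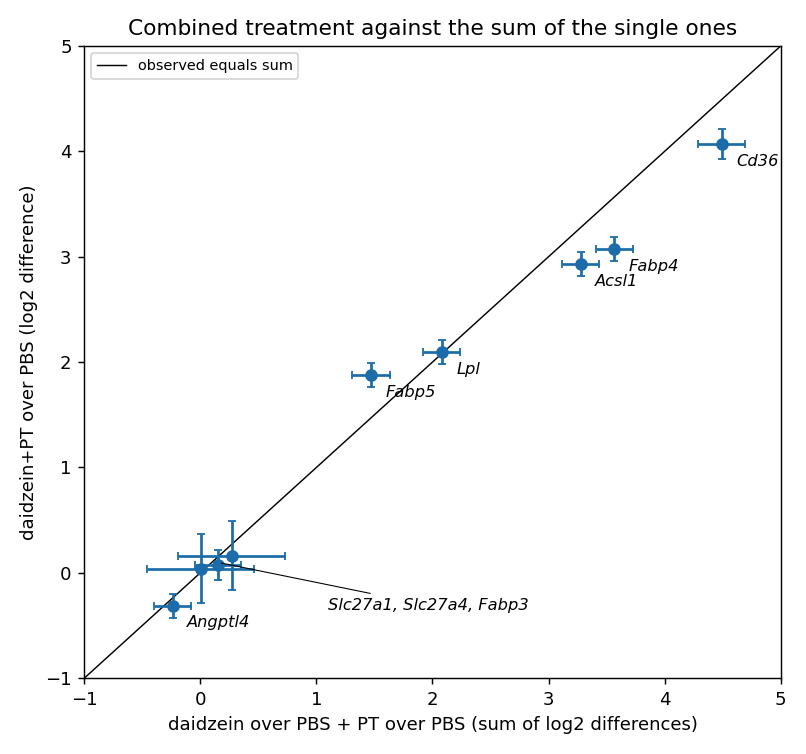
Observed log2 difference for daidzein+PT over PBS (vertical axis) against the sum of the single-agent differences (horizontal axis), with 1 point per member and the diagonal where both are equal. Bars are 1 SD of a difference (vertical) and of a sum of 2 independent differences (horizontal) for genes of like brightness. Both single-agent differences share the PBS array, so the horizontal bars are too short. The vertical value shares that array too, so the 2 bars are not independent. Lpl lies on the diagonal, Cd36, Fabp4 and Acsl1 lie below it and Fabp5 above it.

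Mature adipocyte markers moved with the same order of groups. Of 8 listed, 7 were read on all 4 arrays, all 7 were at least 2-fold higher with daidzein and 6 with PT over PBS, and the 1 not well above background on any array was Lep (leptin). Their summed scaled level was 47.9 with PBS, 310.0 with daidzein, 109.6 with PT and 558 with daidzein+PT. Adipoq differed from PBS by 2.31 with daidzein, 1.08 with PT and 3.15 with both, Cfd (adipsin) by 2.96, 1.11 and 3.80, and Plin1 (perilipin, the lipid droplet coat) by 2.55, 1.39 and 3.48. The 7 preadipocyte and fibroblast markers had a median difference of -0.38 with daidzein, and their summed level ran from 832 to 1016. In RNA of a whole culture, more fat cells and more RNA per fat cell cannot be told apart, and the part of this shift in the values of Cd36, Fabp4, Acsl1, Lpl and Fabp5 was not tested. The summed level of the markers of other cells spanned a narrower range than that of the adipocyte markers. It was 28.8 to 31.0 for macrophages, where the defining Adgre1 and Ptprc were not well above background on any array. For endothelium it was 10.3 to 11.4 (5 of 7 markers not above background on any array). For striated muscle it was 0.82 to 0.89 (4 of 7), and for testis germ cells 0.36 to 0.64 (4 of 7). These sums are of linear values and are carried mostly by the brightest marker, such as Itgam for macrophages and Kdr for endothelium. Changes in dimmer markers barely show in them. Single markers, named after their values were seen, did differ. Marco, on the macrophage list, was 2.51 above PBS with daidzein, 0.76 with PT and 3.29 with both, as wide a range as the adipocyte markers. Tnnt3 of the muscle list, read on only 2 arrays, fell by 1.87 with daidzein in the limma fit, and Zpbp of the germ cell list fell by 0.59 with daidzein and rose by 0.64 with PT.

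Genes around these steps were taken from lists of the same pathway. The limma calls of each list stand against 9.76% higher and 8.23% lower among all genes fitted for daidzein, and 3.87% and 0.946% for PT. Of the proteins that mature, carry or control lipoprotein lipase, 9 of 15 were read on all 4 arrays, and in the limma fit 2 rose and 2 fell with daidzein while 2 rose with PT. Apoc2, the activator of the lipase, read 31.4 with PBS, 98.4 with daidzein, 66.1 with PT and 192 with daidzein+PT. That is a difference of 1.52 with daidzein, 0.91 with PT and 2.66 with both. Apoc1, an apolipoprotein named after its values were seen, differed by 0.87, 0.68 and 2.21. Gpihbp1, which anchors the lipase to capillaries, differed from PBS by -0.50 with daidzein, 0.23 with PT and -0.46 with both, and Angptl8, a partner of other angiopoietin-like inhibitors, by 0.04, -0.07 and 0.17.

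Among lipoprotein receptors and the relatives and partners of CD36, 12 of 13 were read on all 4 arrays, 6 rose with daidzein and 4 with PT in the limma fit, and none fell, against 9.76% and 3.87% of all genes higher and 8.23% and 0.946% lower. Scarb1, the HDL receptor of the CD36 family, was highest for both agents over PBS at 1.60, with 0.98 for daidzein and 0.36 for PT. Fyn, a kinase known to act with CD36, was lowest at -0.27 and passed for neither agent in the limma fit. The only other transport protein read on all 4 arrays was Slc27a3, at -0.10 with daidzein and -0.11 with both. Of the 6 other acyl-CoA synthetases 4 were read, with 1 higher and 1 lower for daidzein. Acsl3 differed by 0.53 with daidzein, 0.37 with PT and 0.87 with both, while Acsbg1 differed by -0.94, -0.28 and -0.85, and its second probe, read on only 2 arrays, gave 0.30 for daidzein.

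Acyl-CoA binding and hydrolysis held 10 of 12 genes read on all 4 arrays, and of 11 fitted by limma 2 rose and 1 fell with daidzein and 2 rose with PT, where 9.76% of all genes were higher and 8.23% lower for daidzein and 3.87% higher for PT, so that 1 lower of 11 is near the share of all genes. Dbi, the acyl-CoA binding protein, differed from PBS by 0.86 with daidzein, 0.23 with PT and 1.40 with both, and the thioesterase Acot1 was lowest at -0.35 for both. All 15 nuclear receptors, C/EBP factors and coregulators were read, of which 4 rose and 1 fell with daidzein and 3 rose with PT by limma, against the same shares of all genes, and 1 lower of 15 is again near that share. Cebpa, a factor that keeps fat cells differentiated, differed by 1.53 with daidzein, 0.73 with PT and 2.48 with both. Pparg differed by 1.03, 0.40 and 1.80, the oxysterol receptor gene Nr1h3 by 1.30, 0.59 and 2.16, and the coactivator gene Ppargc1b by 1.25, 0.13 and 1.48. Ppargc1a was lowest, at -0.34 with daidzein and -0.27 with both.

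**Figure D4:**
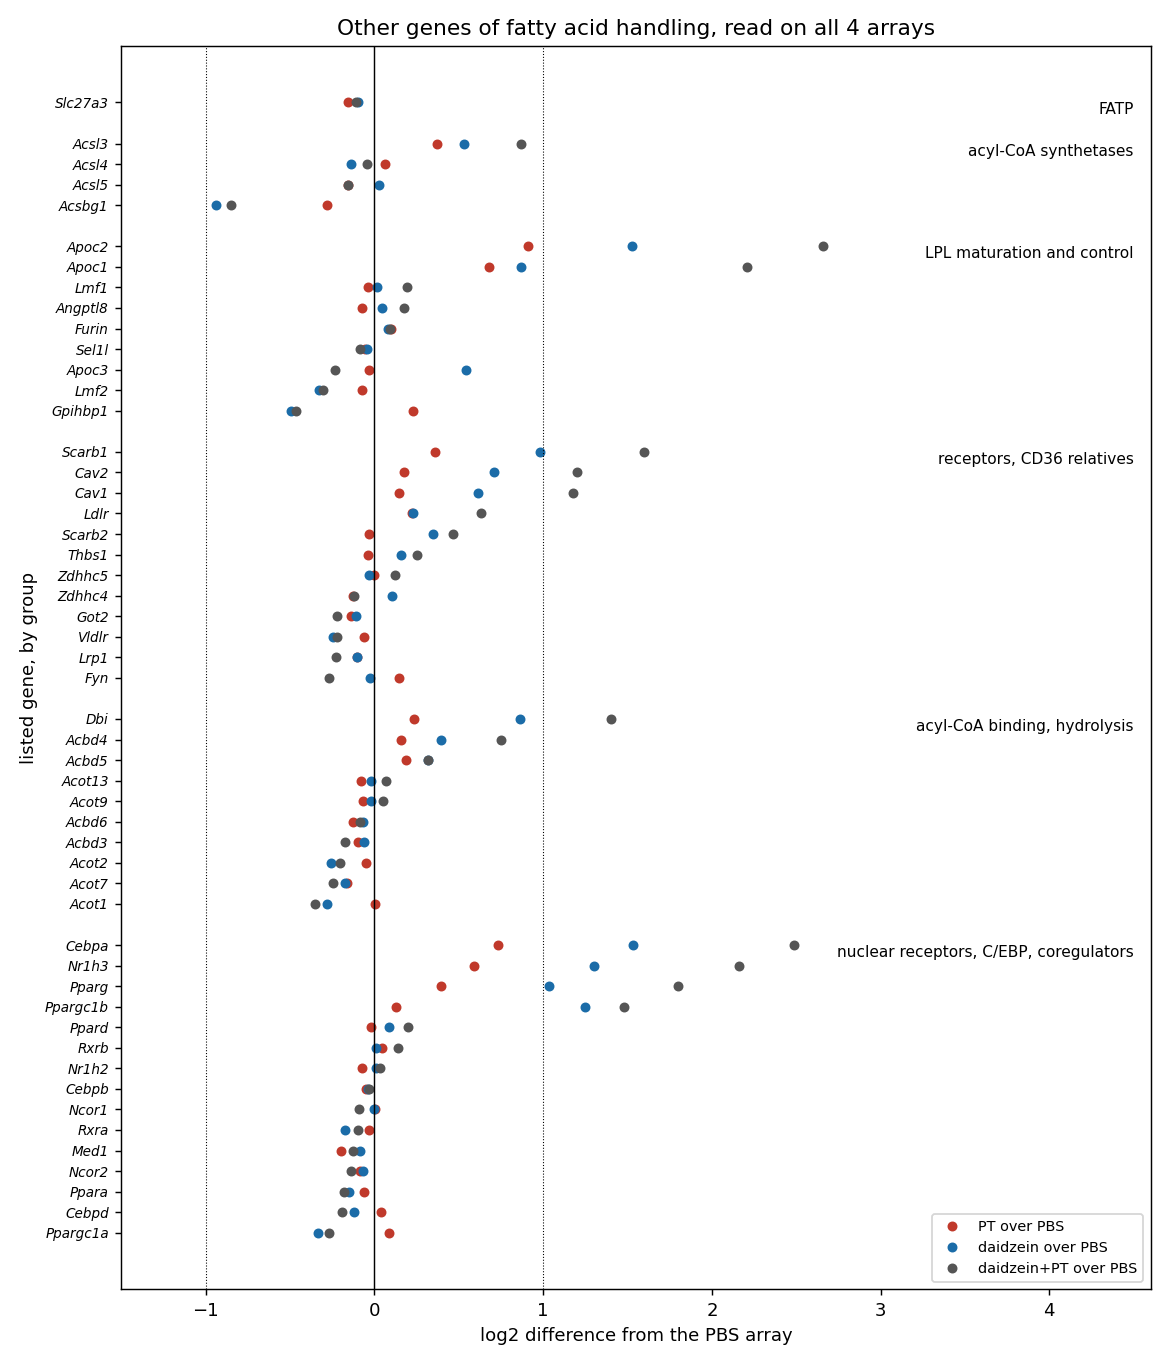
Log2 difference from the PBS array (horizontal axis) of each listed gene read on all 4 arrays, grouped by role, with 1 point for PT, daidzein and daidzein+PT and dotted lines at 2-fold. Apoc2, Cebpa, Apoc1, Nr1h3 and Pparg reach the highest values with both agents, 2.66, 2.48, 2.21, 2.16 and 1.80.

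On chromosome 3 the gene order is Fabp5, Pmp2, Fabp9, Fabp4 and Fabp12 by RefSeq. None of the 7 other binding protein genes was read on all 4 arrays. Fabp12, singled out after its values were seen, was read on 3 arrays, with signals of 5.17 with PBS, 58.8 with daidzein, 20.4 with PT and 70.5 with daidzein+PT. Against the level at which a spot counts as well above background on the PBS array it was at least 3.76-fold higher with daidzein, at least 1.26-fold with PT and at least 5.08-fold with both. Its second probe was well above background on 1 array only and did not follow this order, with -0.02 for daidzein over PBS. Fabp9 read 7.46, 37.8, 17.6 and 12.0 in the order PBS, daidzein, PT and daidzein+PT, and only the daidzein array was well above background.

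Across the array, likeness was measured as the distance over the 3 log2 differences from PBS, among the 12770 genes that were read on all 4 arrays, had a symbol in the RefSeq table and were no members. The nearest genes to Cd36 were Orm2, Mgll and Gpd1, at distances of 0.22, 0.29 and 0.36. Those nearest to Fabp4 were Pygl (0.13), Adipoq (0.18) and Trem2 (0.18). Lpl lay nearest to Ly6h, Rnf125 and Fam110c, each at 0.14. Among the members, Fabp4 and Acsl1 were nearest to each other (0.44) and Lpl and Fabp5 to each other (0.51), whereas Cd36 was 1.24 from its nearest member, Fabp4.

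RefSeq promoters on GRCm38.p6 were found for 5 of the 9 members, in 8 windows of the 250 bases before the start. Those of Cd36, which differed most, and Slc27a4, which stayed within the spread, are shown with motif letters in capitals. The letters searched, on both strands, were 2 copies of AGGTCA in a row with 1 base between them (the strict direct repeat read by PPAR and RXR), the same repeat built from AGGNCA (the relaxed form, which includes the strict one), the single site AGGTCA, TTGCNNAA (read by C/EBP) and CCAAT.
Cd36, chr5:17835897-17836146, minus strand: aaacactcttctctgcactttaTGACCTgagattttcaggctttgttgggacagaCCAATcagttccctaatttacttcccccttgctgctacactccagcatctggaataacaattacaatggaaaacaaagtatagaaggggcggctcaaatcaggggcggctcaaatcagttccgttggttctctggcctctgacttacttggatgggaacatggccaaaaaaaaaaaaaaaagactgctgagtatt
Slc27a4, chr2:29802384-29802633, plus strand: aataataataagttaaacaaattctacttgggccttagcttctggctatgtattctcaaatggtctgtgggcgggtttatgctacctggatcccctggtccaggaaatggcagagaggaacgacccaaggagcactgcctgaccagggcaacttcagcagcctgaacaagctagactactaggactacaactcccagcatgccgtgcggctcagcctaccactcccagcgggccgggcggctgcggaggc
The Cd36 window holds 1 AGGTCA, on the strand opposite to the letters printed (where it reads TGACCT), and 1 CCAAT, and the Slc27a4 window holds none of the 5. The other windows do not divide the members this way: Slc27a1, also flat, holds CCAAT in 2 of its 3 windows, and Acsl1 holds it in 1 of its 2. AGGTCA occurred in 14.0% and CCAAT in 33.8% of 32851 windows of all genes. No member window held either direct repeat (0.0335% and 0.338% of all windows) or TTGCNNAA (9.56%). A match is a description of letters, and its absence says only that these letters are not in this window.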

How the data were processed

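RNA of 3T3-L1 cells given PBS, daidzein, PT or both was read on 1 Agilent array per group. The deposited scanner files hold spot intensity on the linear scale, background-subtracted and detrended by Feature Extraction (10.7.1.1 per the file headers, 9.5.1.1 per the submitters' processing notes). The authors' deposited series table holds intensity that, as its values show, was quantile normalized, and served as an alternative. Probe positions are on mm9 per the file headers.

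Processed signals were put on the log2 scale, the array's 75th percentile was subtracted, outlier spots were dropped (106 to 173 per array), and the brightest probe on average stood for a gene. Of 55681 probes, 27235 matched a RefSeq accession and 2838 were renamed. The other probes kept the name in the scanner files, so counts and shares of all genes include names without a RefSeq match. A gene was compared when well above background on both arrays, and otherwise gave a bound against the higher of the dim probe's own signal and the lowest signal well above background. A pairwise comparison has no test. The additive fit used limma 3.58.1 (R 4.3.3), eBayes with trend and Benjamini-Hochberg adjustment over the 19671 genes read above background on 2 or more arrays. On simulated data for the daidzein effect on 18349 genes it recovered 96 of 100 genes changed 2-fold and all 100 changed 4-fold. It called 10 unchanged genes. Without the trend it recovered 72 and 95 and called 4 unchanged genes. The rule of 2-fold or more higher in both daidzein pairs recovered 27 and 100 and called 0 unchanged genes. On the real arrays, leaving out the trend cut the daidzein calls from 1919 higher and 1618 lower to 80 and 7. That is a far larger drop than in the simulation, so the simulated rates may not hold for these arrays. How the fit does over separate cultures was not tested.

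Named genes were the members, listed genes past 2-fold in both pairs of a treatment, each list's highest and lowest for daidzein+PT over PBS, Gpihbp1, Angptl8, Pparg and Cebpa, and the 3 genes nearest to Cd36, Fabp4 and Lpl. Alternatives were normexp, quantile, median and cyclic loess scaling, the deposited table, the mean over probes, no background filter, a 1.5-fold threshold, no trend and an adjusted p of 0.10. The members and lists were chosen with earlier results of these data known.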

Additional observations from a re-analysis of the deposited data

Results flagged for a closer look

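Slc27a1 was singled out because the PT effect had opposite signs in the 2 settings of daidzein. It was 0.066 without daidzein and -0.011 with it, on the log2 scale, both inside the spread of 0.14 for a difference of 2 arrays. With 1 array per group the difference between the settings was not tested.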

How the results depend on the processing

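No paired analysis was possible because each group has 1 array, and leaving out an array leaves no residual degree of freedom. At a 1.5-fold threshold 5 members were higher for PT added to daidzein, where 0 were at 2-fold. The share of all genes past 1.5-fold was not counted, so whether these 5 stand out at that threshold was not tested. Median scaling left 1 member at 2-fold for PT over PBS, where 3 were, and 3 past the limma threshold for PT, where 5 were. Under it the median of all genes was -0.27 for PT over PBS, -0.24 for both over PBS and -0.14 for PT added to daidzein, where it had been -0.02, -0.03 and 0.01, and relative to that median 3 members were again at 2-fold for PT over PBS. Without the intensity trend limma called 2 members for daidzein and 0 for PT, against 6 and 5. Angptl4 lost its call under 6 settings, with adjusted p up to 0.473. Of 315 differences of single members 24 took the opposite sign. The differences of Lpl, Cd36, Fabp4, Fabp5 and Acsl1 kept their sign, and so did the interactions of Cd36, Fabp4, Acsl1 and Fabp5. Counts over all genes moved more: for PT over PBS 165 genes were 2-fold higher and 12 lower, 42 and 1 with normexp, 99 and 48 with median scaling and 2210 and 889 without the background filter. For daidzein over PBS the 209 and 70 became 116 and 16 with normexp and 1809 and 1155 without the filter. The limma calls for PT, 761 higher and 186 lower, became 340 and 1518 with median scaling and 13 and 1 without the trend, and those for daidzein, 1919 and 1618, became 80 and 7 without the trend. Values near background, such as Fabp3, limit what 1 array can show.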
